A study of Mus musculus with 2 samples.

Results

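The Akr1b and Akr1c genes encode 2 branches of the aldo-keto reductases, enzymes that use NADPH or NADH to turn aldehydes and ketones into alcohols or back. The 10 genes described here, 4 of the Akr1b and 6 of the Akr1c branch, were chosen by gene symbol and are 10 of 55536 annotated genes with a deposited value. They were measured by total RNA sequencing in 2 libraries of adrenal glands from male B6CASTF1/J mice aged 14 days, the first-generation offspring of C57BL/6J and CAST/EiJ parents. They form 1 group, biological replicates 1 and 2, with no treatment named, and each began from 300 ng of RNA depleted of ribosomal RNA and spiked with ERCC standards. The labels give 1 donor record and name pools of males whose size they do not explain. The pool numbers are the same in 1 label field and differ in another. The description field gives both libraries the same cDNA number. Whether the SD spans separate animals is thus not known.

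Akr1b enzymes act on sugars, retinal and the aldehydes that come from lipids and from the cleavage of cholesterol, and Akr1c enzymes act mainly on keto groups of steroids. In the mouse adrenal gland, Akr1b7 is known as an ACTH-responsive gene of the zona fasciculata, where it reduces the isocaproaldehyde released when Cyp11a1 cuts the side chain of cholesterol. Akr1c18 is the 20-alpha-hydroxysteroid dehydrogenase that inactivates progesterone, and it is the classical marker of the X-zone, the layer of young mice next to the medulla that males lose at puberty.

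The libraries held 32963248 expected counts in replicate 1 and 36260745 in replicate 2, of which nuclear protein-coding genes took 17154352 and 19024838. Markers of the gland were present in both: 5 of 5 genes of corticosterone synthesis and 6 of 6 chromaffin genes reached 1 TPM (a level corrected for transcript length and depth) in each library. The libraries also held RNA of genes that mark other tissues. The hepatocyte and lymphocyte sums differed between the libraries, and the adipocyte sum was high in both. The summed level of 8 hepatocyte genes was 266 TPM in the first library and 4430 TPM in the second, that of 6 lymphocyte genes 40.6 and 5.98 TPM, and that of 6 adipocyte genes 2805 and 2850 TPM. None of the 6 kidney genes or 4 pancreas genes reached a mean of 1 TPM. Levels below are RSEM TPM as deposited by the authors, with mean ± SD over the libraries. In whole tissue, fewer cells of a type and less RNA per cell cannot be told apart.

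At least 1 TPM in both libraries was found for 7 of the 10 genes, against 54.2% of the 22015 nuclear protein-coding genes. These were all 4 Akr1b genes and Akr1c13, Akr1c14 and Akr1c18. Akr1c6 and Akr1c20 reached that level in replicate 2 only, and Akr1c12 in neither. The 10 genes together took 0.477% of nuclear protein-coding TPM in replicate 1 and 0.480% in replicate 2 (0.478% ± 0.00231, SD, n = 2). Akr1b7 and Akr1c18 held 89.4% ± 0.560 of that sum, and the other 8 genes 10.6% ± 0.560.

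**Figure D1:**
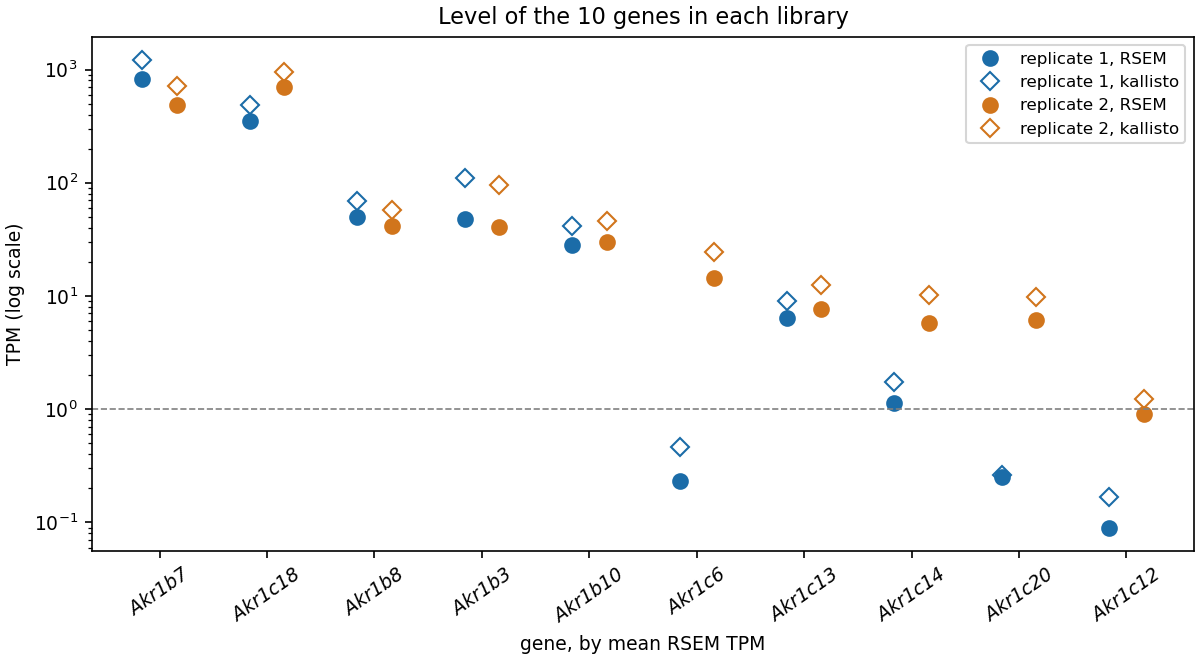
TPM of each gene on a log axis, in replicate 1 (blue) and replicate 2 (orange), by RSEM (filled circles) and kallisto (open diamonds), with genes ordered by mean RSEM TPM and a dashed line at 1 TPM. Akr1b7 and Akr1c18 stand above all other members in both libraries, and Akr1c6, Akr1c14, Akr1c20 and Akr1c12 have wide gaps between the libraries.

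Akr1b7 and Akr1c18 changed places between the libraries while their sum stayed close. Akr1b7 (ENSMUSG00000052131.7, chromosome 6, bases 34412334 to 34423142) had 825 and 486 TPM in replicates 1 and 2 (655 ± 239.5, SD, n = 2), rank 14 and rank 38 among nuclear protein-coding genes. Akr1c18 (ENSMUSG00000021214.14, chromosome 13, bases 4132615 to 4150654) had 348 and 700.4 TPM in the same libraries (524 ± 249), rank 70 and rank 22. Each was thus among the most abundant nuclear protein-coding messengers in both libraries, and which was higher differed by library. The log2 ratio of Akr1c18 to Akr1b7 was -1.24 in replicate 1 and 0.53 in replicate 2 (mean -0.36 ± 1.25), so the mean ratio is smaller than its spread and the order of these genes is not fixed by these data. By kallisto the log2 ratios were -1.31 and 0.43. The 4 Akr1b members summed to 951 and 598 TPM in replicates 1 and 2, and the 6 Akr1c members to 356 and 736 TPM.

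**Figure D2:**
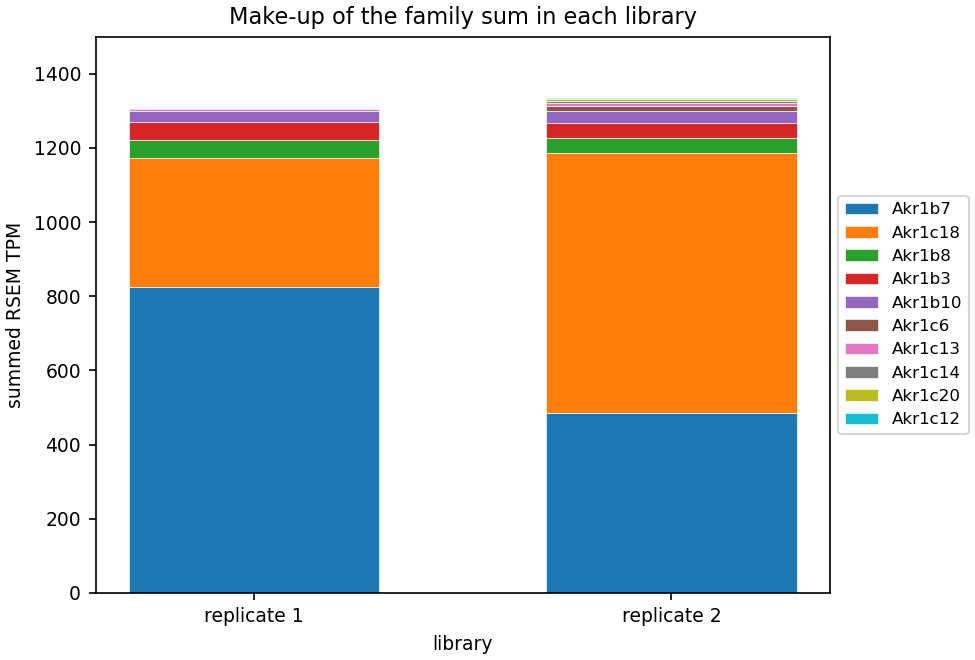
Summed RSEM TPM of the 10 genes in each library, stacked by gene with Akr1b7 at the bottom and Akr1c18 above it. The bars reach 1307 and 1334 TPM, with 63.1% and 36.4% of the sum on Akr1b7 and 26.6% and 52.5% on Akr1c18.

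Among the listed genes that share a zone with this pair, those of the zona fasciculata differed less than Akr1b7, and those of the X-zone were split. Of the other X-zone genes, Thrb, a thyroid hormone receptor, had 11.8 and 15.1 TPM in replicates 1 and 2, a 1.28-fold ratio, and Pik3c2g, a lipid kinase, had 1.21 and 2.57 TPM, a 2.12-fold ratio on a low level. Akr1c18 itself was 2.01-fold higher in replicate 2 (counting interval 1.97 to 2.05). The zona fasciculata genes Cyp11b1, Mc2r and Star had ratios of 0.943 to 1.20, replicate 2 over replicate 1, and Akr1b7 had a ratio of 0.589 (0.579 to 0.600). Akr1b7 is also known from white fat. The 6 adipocyte genes, a list not limited to white fat, had ratios of 0.930 to 2.91, 4 of them above 1. The fat hormone leptin, Lep, was the 1 gene over 2-fold apart, with 1.58 and 4.59 TPM in replicates 1 and 2. The part of zone size, fat or other tissue in these differences was not tested.

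The 4 Akr1b genes lie within 120709 bases of mouse chromosome 6 (mm10), Akr1b3 from 34302434 to 34317478 on the minus strand and on the plus strand Akr1b8 from 34354119 to 34368463, Akr1b10 from 34384218 to 34396950 and then Akr1b7. All are protein-coding with a coding sequence of 951 bases. Coding identity ran from 71.9% to 89.3% over the 6 pairs, and Akr1b7 and Akr1b10 were the closest. The 250 bases before the RefSeq start were searched for the SF-1 element AAGGTCA, bound by Nr5a1, a factor that drives steroidogenic genes. On either strand, 4.08% of 32851 mouse promoters of this length hold it, and Akr1b7 and Akr1b10 were the members with it, out of 8 genes with a sequence. The sequences below, RefSeq promoters on GRCm38.p6 ended before the first base that GENCODE M21 annotates to the gene, show these 2 promoters 5′ to 3′ along the gene. Capitals mark the SF-1 element, which reads TGACCTT because it lies on the opposite strand, and the CCAAT box (either strand, in 33.8% of promoters). Akr1b7 is from chr6:34412112-34412333 and Akr1b10 from chr6:34383997-34384217, both on the plus strand.
Akr1b7: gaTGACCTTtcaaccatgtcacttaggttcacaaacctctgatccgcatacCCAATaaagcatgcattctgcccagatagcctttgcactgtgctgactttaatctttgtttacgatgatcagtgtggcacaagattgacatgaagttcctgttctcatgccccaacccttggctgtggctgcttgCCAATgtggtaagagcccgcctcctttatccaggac
Akr1b10: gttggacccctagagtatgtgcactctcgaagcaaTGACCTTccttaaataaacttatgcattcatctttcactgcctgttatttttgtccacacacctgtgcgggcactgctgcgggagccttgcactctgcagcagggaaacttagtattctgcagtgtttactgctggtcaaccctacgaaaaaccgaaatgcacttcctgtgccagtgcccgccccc
The element lies 248 to 242 bases before the RefSeq start in Akr1b7 and 215 to 209 bases before it in Akr1b10. Akr1b7 also holds 2 CCAAT boxes. A match is a run of letters and not evidence of binding, and the levels of this pair differed widely.

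Below Akr1b7, 3 Akr1b genes formed a middle tier. Akr1b8, an aldehyde reductase induced by growth factors in cultured fibroblasts, had 49.9 and 41.4 TPM in replicates 1 and 2 (45.7 ± 6.04, SD, n = 2). Akr1b3, the aldose reductase that makes sorbitol from glucose, had 48.0 and 40.7 TPM (44.4 ± 5.11). Akr1b10 had 27.9 and 30.0 TPM (29.0 ± 1.46). Akr1b7 exceeded Akr1b8 16.5-fold in replicate 1 and 11.7-fold in replicate 2. Akr1b8 was 1.04-fold and 1.02-fold higher than Akr1b3, a small difference of one direction (log2 ratio 0.04 ± 0.02). Both exceeded Akr1b10 in each library, Akr1b8 by 1.79-fold and 1.38-fold. These 3 genes stayed close between the libraries, with ratios of 0.829 for Akr1b8, 0.849 for Akr1b3 and 1.07 for Akr1b10.

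The level of Akr1b3 depended on how its reads were assigned. By kallisto Akr1b3 reached 109 TPM in the first library and 96.1 TPM in the second, above Akr1b8 at 68.8 TPM and 57.1 TPM, so the order of these genes turned with the quantification. Short transcripts of Akr1b3 rose most. Akr1b3-204, a retained-intron transcript of 554 bases, stood at 19.7 TPM and 17.8 TPM by RSEM and at 60.0 TPM and 48.2 TPM by kallisto, and Akr1b3-205, of 583 bases, at 0.320 TPM and 0 TPM by RSEM and at 15.1 TPM and 17.6 TPM by kallisto. The long coding transcript Akr1b3-201 was at 27.3 TPM and 22.3 TPM by RSEM and at 33.3 TPM and 29.3 TPM by kallisto.

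Akr1b3 also shares sequence with genes outside the 10 members. Of 1288 windows of 100 bases along Akr1b3-201, 652 occur in transcripts of 3 processed pseudogenes, Gm12138 on chromosome 11, Gm6644 on chromosome 1 and Gm6736 on chromosome 12, and 49.4% are unique to Akr1b3. Gm12138 was given 19.3 and 16.1 TPM in replicates 1 and 2, and Gm6736 6.92 TPM and 7.15 TPM. The expected counts of Akr1b3 and these 3 pseudogenes added up to 2278 in replicate 1 and 2121 in replicate 2, whole numbers within 0.02. With the pseudogenes the sum was 69.2 ± 6.99 TPM by RSEM, of which the pseudogenes held 36.0% ± 0.916. By kallisto the sum was 133 ± 13.9 TPM, with 22.9% ± 0.957 on the pseudogenes. The split of reads between Akr1b3 and these copies is uncertain, and which of them is transcribed was not tested. The antisense gene Gm14546, which spans Akr1b3 on the other strand, had 0 expected counts in both libraries.

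The other Akr1b genes were also given fractions of reads. The expected counts of Akr1b7, Akr1b8 and Akr1b10 held fractions and added up to 35182 in replicate 1 and 23603 in replicate 2, again whole within 0.02, although no window of 100 bases is shared between them. The deposited credibility bounds around the posterior mean TPM of Akr1b10, the least abundant of the 3, were 26.0 to 29.3 in replicate 1 and 28.0 to 31.4 in replicate 2. Those bounds overlap between the libraries, while those of Akr1b7, 799 to 817 and 470.5 to 484, do not. The TPM of Akr1b7 lay above its bounds in both libraries, since the bounds belong to the posterior means of 808 and 477 TPM. The same held for Akr1c18, at 348.2 and 700.4 TPM in replicates 1 and 2 against upper bounds of 347.2 and 695.4.

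**Figure D3:**
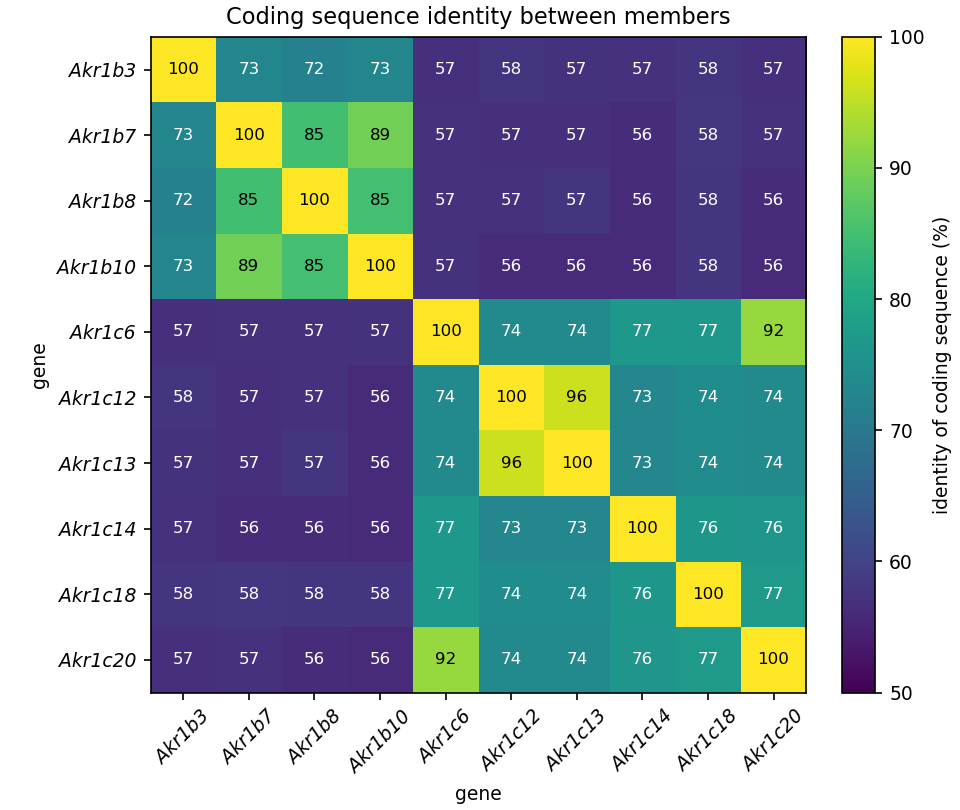
Identity of coding sequence, in percent of aligned positions, between every pair of the 10 genes, from dark (50%) to yellow (100%). The Akr1b and Akr1c blocks stand out against 56.0% to 57.9% between the branches, and the closest pairs are Akr1c12 with Akr1c13, Akr1c6 with Akr1c20 and Akr1b7 with Akr1b10.

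The 6 Akr1c members lie within 474335 bases of chromosome 13, 3 on each strand. On the plus strand lie Akr1c14 (4049011 to 4090688), Akr1c13 (4191150 to 4205596) and Akr1c6 (4434306 to 4457877), and on the minus strand Akr1c18, Akr1c12 (4268176 to 4279433) and Akr1c20 (4486849 to 4523345). Each has a coding sequence of 972 bases, and identity over the 15 pairs ran from 73.1% to 96.2%. In this cluster, Akr1c18 was alone in its level. It exceeded Akr1c13, the next Akr1c gene found in both libraries, 54.2-fold in replicate 1 and 90.5-fold in replicate 2. Its RSEM counts, 12457 in replicate 1 and 27240 in replicate 2, were whole numbers, and all 1101 windows of its main transcript are unique. There was thus no sign that RSEM divided its reads with other genes. Kallisto gave it 11156 and 24284 counts in replicates 1 and 2. The Akr1c18 promoter is shown because it belongs to the most abundant gene of the cluster, on the minus strand at chr13:4150655-4150896. It holds none of the 5 motifs searched, which were the SF-1 element, the CCAAT box, TATAAA, the cyclic AMP response core TGACG and the antioxidant element TGACNNNGC.
Akr1c18: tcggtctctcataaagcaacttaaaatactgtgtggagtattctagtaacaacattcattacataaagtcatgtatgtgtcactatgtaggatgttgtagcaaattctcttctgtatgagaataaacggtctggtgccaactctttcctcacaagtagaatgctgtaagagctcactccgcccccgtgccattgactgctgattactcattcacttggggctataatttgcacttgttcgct
Across promoters of this length, TATAAA is found in 12.4%, TGACG in 17.8% and TGACNNNGC in 10.2%, on either strand. None of the 8 members with a promoter sequence held TGACG or TGACNNNGC in this window, and TATAAA was found in Akr1b8 and Akr1c6. Akr1b3 and Akr1c20 had no sequence to search.

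Akr1c12 and Akr1c13 are near copies with unlike levels. Their coding sequences are 96.2% identical, and their promoters are 92.5% identical over 250 bases, while the next closest pair of member promoters reached 52.1%. Akr1c13 is shown from chr13:4190937-4191149 on the plus strand and Akr1c12 from chr13:4279434-4279649 on the minus strand, with no motif to mark.
Akr1c13: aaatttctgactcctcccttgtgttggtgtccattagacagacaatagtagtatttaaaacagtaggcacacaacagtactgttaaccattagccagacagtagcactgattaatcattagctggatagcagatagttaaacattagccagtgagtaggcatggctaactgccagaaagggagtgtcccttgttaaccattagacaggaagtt
Akr1c12: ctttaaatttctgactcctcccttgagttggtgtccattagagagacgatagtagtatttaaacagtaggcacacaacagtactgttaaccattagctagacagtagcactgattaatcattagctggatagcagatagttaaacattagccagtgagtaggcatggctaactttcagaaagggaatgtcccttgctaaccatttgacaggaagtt
Akr1c13 had 6.42 and 7.74 TPM in replicates 1 and 2 (7.08 ± 0.933, SD, n = 2). Akr1c12 had 0.0900 and 0.910 TPM, from 3.51 and 37.5 expected counts. Akr1c13 exceeded Akr1c12 in each library, 71.3-fold in replicate 1 and 8.51-fold in replicate 2. Of the windows of Akr1c12, 88.5% are unique, and the counts of the pair added up to 199 and 340, whole within 0.02, so reads were divided between them. The ratio of Akr1c12 between the libraries was 10.1, with a counting interval of 3.64 to 39.0, so its size is poorly known.

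Akr1c6, Akr1c20 and Akr1c14 were much higher in the replicate 2 library. Akr1c6, a 17-beta-hydroxysteroid dehydrogenase best known from liver, had 0.230 and 14.5 TPM in replicates 1 and 2, from 10 and 664 expected counts. Akr1c20, its close copy at 92.3% coding identity, had 0.250 and 6.17 TPM, from 9 and 248 counts. Akr1c14, a 3-alpha-hydroxysteroid dehydrogenase, had 1.13 and 5.78 TPM, from 91 and 543 counts. All 3 had whole RSEM counts and only unique windows, so there was no sign that RSEM divided their reads with other genes. Kallisto gave Akr1c14 other counts, 110 and 621 in replicates 1 and 2. The ratios were 63.2 for Akr1c6 (counting interval 34.2 to 132), 24.7 for Akr1c20 (12.8 to 54.6) and 5.12 for Akr1c14 (4.09 to 6.46). By posterior mean TPM the ratio of Akr1c6 was 24.4, and by kallisto it was 53.1. All 8 hepatocyte genes were also higher in replicate 2, from 6.88-fold for Tat to 22.7-fold for Apoc3, with albumin Alb at 17.8-fold. The ratio of Akr1c14 and its counting interval lay below this range. The interval of Akr1c20 overlapped the range, and that of Akr1c6 lay above it, on 10 counts in replicate 1. On 9 counts in replicate 1, the ratio of Akr1c20 was 18.5 by posterior mean TPM and 37.0 by kallisto. The first lies within the range and the second above it, so the size of this ratio is also poorly known. The replicate 1 TPM of Akr1c6 lay below its deposited bounds of 0.275 to 0.991, so the size of its ratio is poorly known. The range covers 8 chosen genes and does not bound the ratios of other hepatocyte genes. The part of hepatocyte RNA in these levels was not tested. In mean level, Akr1c6 (7.39 ± 10.1 TPM, SD, n = 2), Akr1c13, Akr1c14 (3.46 ± 3.29) and Akr1c20 (3.21 ± 4.19) followed each other. Akr1c6 and Akr1c13 changed order between the libraries. Akr1c14 and Akr1c20 did so by RSEM, at 5.78 and 6.17 TPM in replicate 2. By kallisto they did not, at 10.2 and 9.72 TPM in replicate 2. Akr1c13 exceeded Akr1c14 in both libraries, 5.68-fold in replicate 1 and 1.34-fold in replicate 2 (log2 ratio 1.46 ± 1.47).

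Of the 10 members, 9 passed a mean of 1 TPM, Akr1c6 and Akr1c20 through replicate 2 alone, so that these had to differ. Of these 9, 4 were over 2-fold higher in replicate 2 (Akr1c6, Akr1c20, Akr1c14 and Akr1c18), against a background of 3.37% of 12535 nuclear protein-coding genes that passed the same limit. Without Akr1c6 and Akr1c20 it was 2 of 7. None was over 2-fold higher in replicate 1, against 2.52%, and in either direction the background was 5.89%. It was 6.83% for genes of 1 to 20 TPM, where Akr1c6, Akr1c14 and Akr1c20 lie, 2.53% for 20 to 100 TPM and 2.9% above that, where Akr1c18 lies. By kallisto 3 members were over 2-fold higher in replicate 2, Akr1c18 being at 1.97-fold, against 3.73%, with a background of 7.25% in either direction. Akr1c18 lay just past the limit at 2.01-fold, and Akr1b7 was the nearest gene within it, 1.70-fold higher in replicate 1. The median log2 ratio was 0.27 over the 9 genes and -0.07 over all genes tested.

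**Figure D4:**
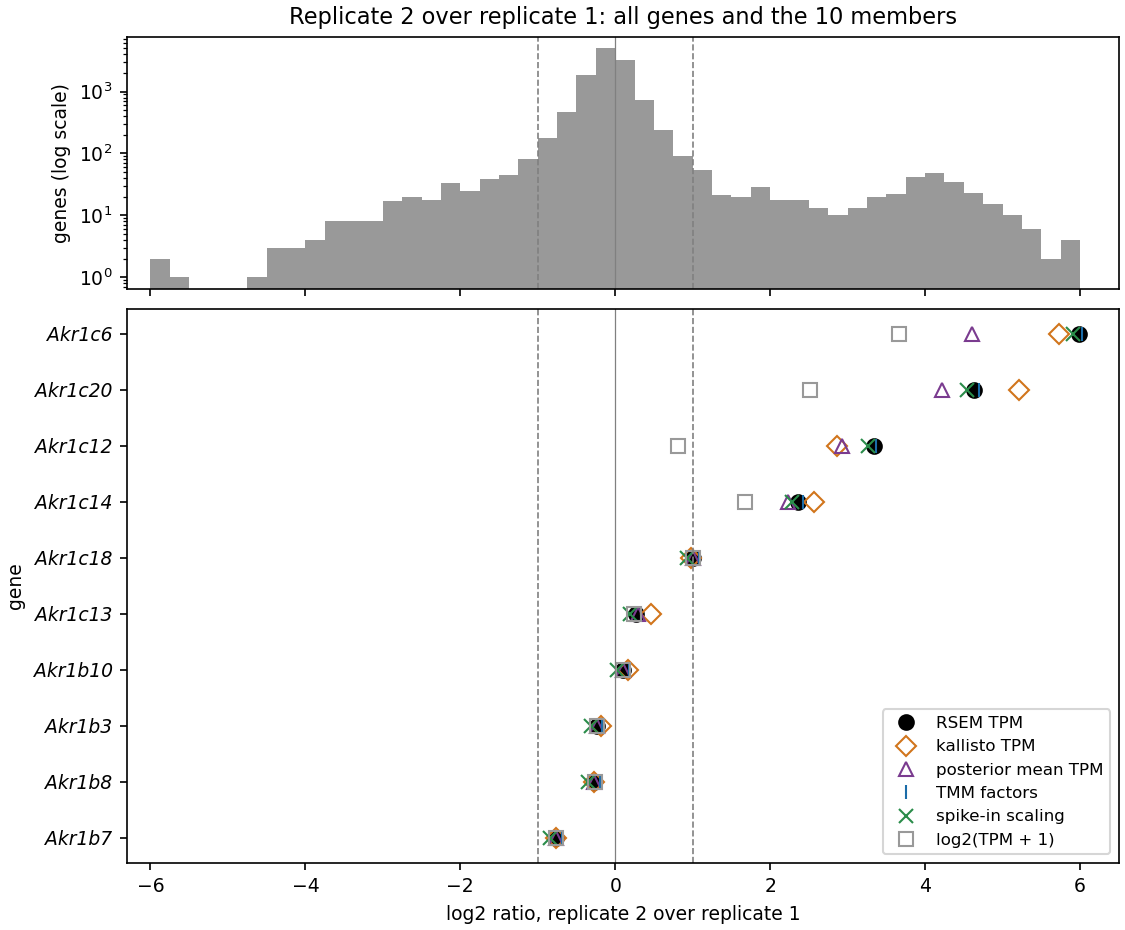
Upper panel, the number of nuclear protein-coding genes passing a mean of 1 TPM (log axis) by log2 ratio, replicate 2 over replicate 1, with values beyond 6 placed in the end bins. Lower panel, the log2 ratio of each member under 6 settings, with dashed lines at 2-fold: Akr1c6, Akr1c20 and Akr1c14 lie right of 1 under all of them, Akr1c18 lies at 1, and Akr1b7 lies left of 0.

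Transcript make-up differed between members. Akr1b7 and Akr1c12 have a single annotated transcript each. Akr1b8 was almost wholly on the coding transcript Akr1b8-201, with 99.6% ± 0.157 of its TPM (SD, n = 2). Akr1c18 was split between 2 coding transcripts, with 88.8% ± 2.16 on Akr1c18-201 and 11.2% ± 2.16 on the shorter Akr1c18-202. By kallisto the share of Akr1c18-201 was 92.3% ± 0.700, so the leading form held in both quantifications. Retained-intron transcripts took 43.9% ± 2.03 of Akr1b3 TPM by RSEM and 53.5% ± 3.22 by kallisto. They took 15.0% ± 0.245 of Akr1b10 TPM by RSEM and 26.3% ± 2.81 by kallisto.

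Some transcript shares were not settled. The nonsense-mediated decay transcript Akr1b10-203 took 28.2% of Akr1b10 TPM in replicate 1 and 7.84% in replicate 2 by RSEM, but 3.17% and 1.15% by kallisto. For Akr1c14, RSEM placed 72.2% ± 18.0 on Akr1c14-201, whereas kallisto placed 21.1% ± 5.26 there and 61.8% ± 12.4 on Akr1c14-202, so the leading form turned with the quantification. For Akr1c13, the decay transcript Akr1c13-202 took 21.6% ± 2.32 by RSEM and 45.7% ± 4.08 by kallisto.

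**Figure D5:**
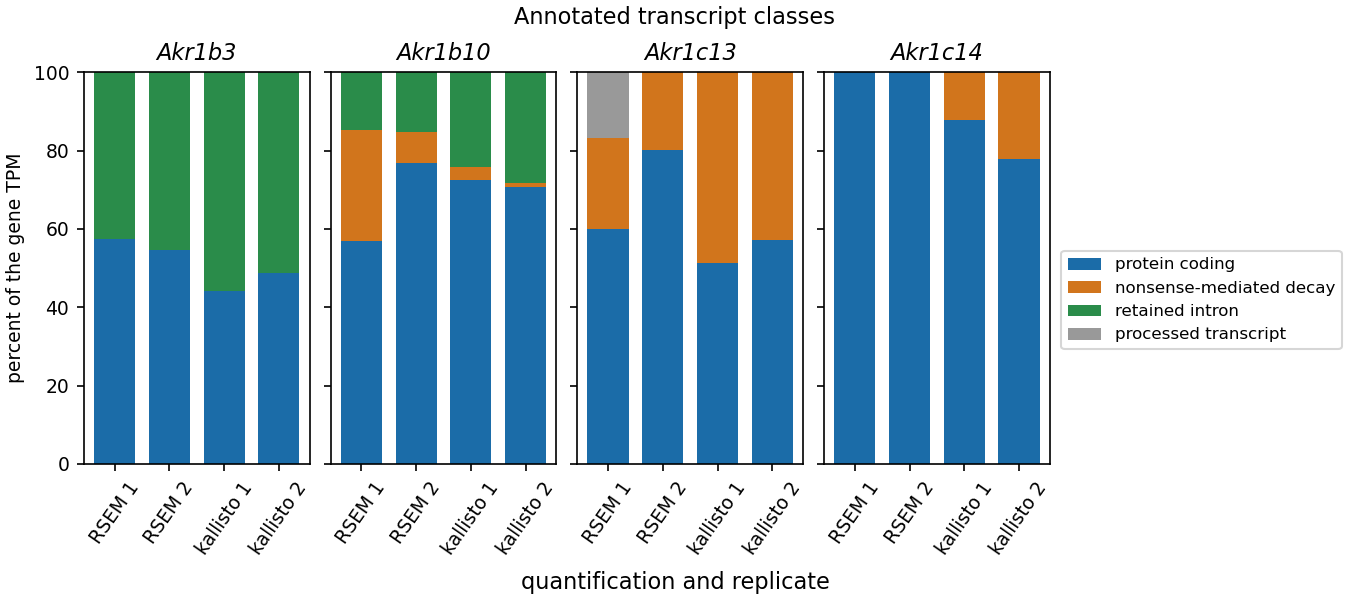
Percent of gene TPM on each class of annotated transcript for Akr1b3, Akr1b10, Akr1c13 and Akr1c14, in replicates 1 and 2 by RSEM and by kallisto. Retained-intron transcripts take 42.5% to 55.8% of Akr1b3, and the decay class of Akr1c13 is larger by kallisto.

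Of 10 further aldo-keto reductase genes, among them Akr1c19, Akr1c21 and Akr1cl, which carry Akr1c names but were not among the 10 members, 7 passed a mean of 1 TPM. The highest were Akr1a1, the general aldehyde reductase, at 173 ± 3.59 TPM (SD, n = 2), Akr1cl at 126 ± 17.9, Akr1d1, the steroid 5-beta-reductase, at 68.7 ± 12.1, and Akr7a5 at 16.6 ± 0.453. Akr1a1, Akr1cl and Akr1d1 thus exceeded each member other than Akr1b7 and Akr1c18 by RSEM TPM. Akr1d1, best known from liver, had 60.2 and 77.3 TPM in replicates 1 and 2. Of the 7 genes, 1 was over 2-fold apart, against 5.89% of all genes tested: Kcnab2, a potassium channel subunit, at 4.19 and 1.67 TPM in replicates 1 and 2. On chromosome 13, Akr1c19, which lies within the Akr1c cluster, had 8 and 21 expected counts, and Akr1c21, which lies beside it, had 0 in both libraries.

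Of the 5 genes that make progesterone and corticosterone, 0 were over 2-fold apart, which at a background of 5.89% says nothing particular to them, and their median log2 ratio was 0.09. Star, which brings cholesterol into mitochondria, and Cyp11a1, which makes the aldehyde that Akr1b7 reduces, had ratios of 1.20 and 1.09. Hsd3b1, which makes the progesterone that Akr1c18 reduces, had a ratio of 1.04, and Cyp21a1, the steroid 21-hydroxylase, one of 1.06. Of 12 genes of steroid reduction and oxidation that passed 1 TPM on average, 4 were over 2-fold higher in replicate 2, against a background of 3.37%, and 0 in replicate 1, against 2.52%. These were Hsd17b2, which inactivates estradiol and testosterone, at 0.350 and 6.84 TPM in replicates 1 and 2, Hsd17b6 at 0.150 and 2.09 TPM, Hsd11b1, which regenerates corticosterone, at 7.04 TPM and 22.3 TPM, and Dhrs9 at 1.33 TPM and 2.97 TPM. Hsd17b2 and Hsd17b6 passed 1 TPM on average through replicate 2 alone, so they had to differ. All 8 hepatocyte genes were higher in the same library, 6.88-fold to 22.7-fold, and their part in these levels was not tested. In the polyol pathway, Sord, which turns the sorbitol made by Akr1b3 into fructose, was at 16.4 TPM and 27.2 TPM, and Khk, which phosphorylates fructose, at 12.9 TPM and 19.0 TPM. Of the 4 listed polyol genes 3 passed a mean of 1 TPM, the other being the glucose transporter Slc2a1 at 5.22 and 4.30 TPM. None of the 3 was over 2-fold apart, which at a background of 5.89% says nothing particular to them. The most abundant genes of steroid reduction and oxidation, Hsd17b10, Hsd17b4, Hsd17b12 and Srd5a2, a steroid 5-alpha-reductase, were not over 2-fold apart either, and Hsd17b10 had 66.7 and 57.6 TPM.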

How the data were processed

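Total RNA of 2 adrenal gland libraries was analysed, both of 1 group. Gene and transcript tables of expected counts and TPM were deposited by the authors, made from transcriptome alignments to mm10 with GENCODE M21, per the deposited file list, and the column names are those of RSEM, per the file headers. The TPM covers all entries, spike-ins included, and its credibility bounds, a signal with no fixed total, were also deposited by the authors. A further set of estimated counts and TPM per transcript carries the column names of kallisto, per the file headers, and was summed here to genes. Versions and the aligner were not given in the sources used here. Reads from CAST alleles went to the reference strain's sequence, and the effect on members was not measured.

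Members were matched on the gene symbol of the kallisto targets and joined on gene ID. Members and lists were chosen with earlier results of these data known. All 10 members are named. Genes of the pathway lists are named if among the 4 highest by mean TPM or over 2-fold apart with a mean of at least 1 TPM. Akr1c19 and Akr1c21, named for their place near members, fall outside this, as do the marker genes, which were named as examples after their values were seen. Ratios are plain TPM ratios, replicate 2 over replicate 1. With 1 group, no conditions are compared and no p-value is given. Alternatives were TMM factors (edgeR 4.0.16, R 4.3.3), spike-in scaling over 39 ERCC RNAs with at least 10 counts, rescaling over nuclear protein-coding genes, posterior mean TPM, kallisto values and pseudocounts of 1 and 0.1. Coding sequences from GENCODE M21 transcripts were aligned globally with Biopython 1.88. Intervals are 95% and cover counting error only, and the labels name no molecular identifiers. The ratio, TMM and sequence steps were tested on simulated data. Over nuclear protein-coding genes, a chi-square comparing the libraries' rounded counts gave 59.4 per degree of freedom, so they do not look like copies of 1 library and both were used. This does not show that they come from separate animals.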

Additional observations from a re-analysis of the deposited data

How the results depend on the processing

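The count of members with at least 1 TPM in both libraries was 7 with a minimum of 0.5 TPM and by kallisto, and 6 with 5 TPM. It was 7 to 9 when each library was taken alone, a setting chosen after seeing the data. The share of nuclear protein-coding TPM on the 10 genes was 0.422% by kallisto and 0.286% of expected counts, and 0.477% to 0.480% without either replicate. The share of the 10 genes' sum on Akr1b7 and Akr1c18 was 87.3% by kallisto and 89.0% to 89.7% without either replicate. The log2 ratio of Akr1c18 to Akr1b7 ranged from -1.24 to 0.53 without either replicate. The number of members over 2-fold apart fell to 2 of 7 with a mean of at least 5 TPM, because fewer genes were then tested, and was 3 with rescaling, with spike-in scaling and by kallisto, which put Akr1c18 just under 2-fold, and 5 of 10 with 10 counts in a library as the minimum. For all nuclear protein-coding genes the count was 229 of 8314 with a mean of at least 5 TPM and 1604 of 15147 with 10 counts in a library. Each member's log2 ratio kept its sign under all 7 alternatives. Akr1c12 and Akr1c18 crossed the 2-fold limit under some of them. Akr1c12 was at 0.81 with log2(TPM + 1). A ratio between the libraries has no value without a replicate. No paired analysis was possible because there is 1 group. Depth limits Akr1c6, Akr1c12 and Akr1c20 in replicate 1, each with 10 counts or fewer.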

Other observations

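Some genes of aldehyde handling outside the aldo-keto reductases were abundant in these libraries, and the part of fat or other tissue in their levels was not tested. All 13 listed genes reached 1 TPM in both libraries, where 54.2% of nuclear protein-coding genes did. Their mean levels ran down to 2.4 TPM for Cbr3. None was over 2-fold apart, where 5.89% of all genes tested were. With lists of this size, that says nothing particular to them. Adh1, an alcohol dehydrogenase that also acts on retinol, stood at 1044 ± 61.3 TPM (SD, n = 2), above the mean of Akr1b7. The mitochondrial aldehyde dehydrogenase Aldh2 was at 299.6 ± 32.8 TPM, Adh5, which clears formaldehyde bound to glutathione, at 51.0 ± 4.43, and the carbonyl reductase Cbr4 at 22.2 ± 2.06.

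Of 12 genes of the antioxidant factor Nfe2l2, which controls some aldo-keto reductases, 11 passed a mean of 1 TPM. None of these was over 2-fold apart, which at a background of 5.89% says nothing particular to them. The highest were the sulfiredoxin Srxn1 at 74.5 ± 4.97 TPM, the glutathione transferase Gstm1 at 40.6 ± 2.93, the thioredoxin reductase Txnrd1 at 29.6 ± 1.82 and G6pdx, which supplies NADPH, at 29.4 ± 1.42.

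Akr1b7 and Akr1c18 are linked with prostaglandin F2-alpha, Akr1b7 as a synthase and Akr1c18 through the loss of progesterone that this prostaglandin brings about in the mouse ovary. Of 7 further genes of this pathway found in the annotation, 5 passed a mean of 1 TPM. None of the 5 was over 2-fold apart, which at a background of 5.89% says nothing particular to them. The highest were Cbr1, a carbonyl reductase of prostaglandins, at 36.9 ± 3.21 TPM, the cyclooxygenase Ptgs1 at 3.83 ± 0.219, the degrading enzyme Hpgd at 2.63 ± 1.19 and the transporter Slco2a1 at 1.81 ± 0.205.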
